A study of Mus musculus with 4 samples.

Results

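TAD borders that lay exactly 1 bin of 40 kb apart in the 2D- and 3D-cultured AML12 cells were examined. The borders were the positions on the 19 autosomes at which a TAD starts or ends, each counted once, and a border of the 2D list was called displaced when the nearest border of the 3D list was exactly 40 kb away. This held for 986 of the 5681 autosomal 2D borders, which is 17.4% (95% Wilson interval 16.4 to 18.4%). Over all chromosomes the 2D list had 6056 borders. The borders were selected on the distance between the positions in the 2 lists, so their number is a description. Just outside it lay 3690 borders at the same position in both lists, 65.0%, and 407 borders whose nearest 3D border was 80 kb away, 7.16%. In all, 1005 borders lay 80 kb or more from a 3D border.

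AML12 is a line of immortalized hepatocytes from a mouse that carried a human TGF-alpha transgene. In situ Hi-C, which ligates and sequences pairs of DNA ends that are close in the nucleus, was done on cells plated on dishes (2D) and on cells embedded in Matrigel (3D), with 2 replicates each and 4 samples in all. Cells of both cultures had been treated with 1 mM hydroxyurea, an inhibitor of DNA synthesis, for 24 h in 2D and 36 h in 3D, so that culture and treatment time cannot be told apart. The authors combined the replicates before the TADs were called, so there is 1 list per culture, no spread between replicates and no read count behind a border. No p-value was therefore computed, and the lists hold no expression values by which the cell type could be checked against its markers. Intervals are 95% Wilson intervals for shares and order-statistic intervals for medians. They cover counting error only, and borders of 1 list are not replicates of a culture.

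A TAD is a stretch of chromatin whose loci contact each other more than they contact the next stretch. In mammals, cohesin is thought to extrude loops of chromatin until it is stopped by the zinc finger protein CTCF bound to its motif, and TAD borders are known to be rich in CTCF sites and in the starts of active genes. Motifs at the left side of a loop mostly point into it on the plus strand, and those at the right side on the minus strand. A shift by 1 bin passes the 40 kb between the 2D and the 3D position, here the displaced bin, from 1 side of the border to the other.

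Matches to the 12 letters of the CTCF core motif were searched on both strands of GRCm38, the build that mm10 names. Of the 940 displaced bins of borders with a single direction, 307 (32.7%, 29.7 to 35.7%) held a match, against 17.1% of all autosomal bins of this length without unknown bases. The share was 34.6% (33.1 to 36.1%) in the bin before and 35.1% (33.5 to 36.6%) in the bin after a border at the same position in both lists, so it was not higher in the displaced bins than at fixed borders. Those shown are from the bins of borders described below, and from bins between 2 otherwise unmoved TADs with a match within 1 kb of either position. They were chosen after their values were seen. Each line gives the position and strand of the motif, then the motif in capitals with 10 bases on either side, 5′ to 3′ on the motif's strand.
chr7:27159989-27160000 (+): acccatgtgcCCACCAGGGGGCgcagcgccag
chr17:27120870-27120881 (-): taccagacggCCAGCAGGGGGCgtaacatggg
chr10:70279546-70279557 (+): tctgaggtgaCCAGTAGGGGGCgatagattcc
chr3:20520936-20520947 (-): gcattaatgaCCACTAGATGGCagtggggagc
chr16:4655670-4655681 (-): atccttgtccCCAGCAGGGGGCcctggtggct
chr16:4667369-4667380 (-): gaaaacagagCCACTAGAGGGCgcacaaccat
chr9:46285980-46285991 (+): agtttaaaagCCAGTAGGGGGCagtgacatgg
chr9:46314668-46314679 (-): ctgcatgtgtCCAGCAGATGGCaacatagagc
The first lay in an intron of Egln2 and ended at 27160000 on chromosome 7, which is the 2D position itself, and the next lay 870 bp from the 2D position, in an intron of Itpr3. The third, in an intron of Slc16a9, and the one after it, between genes, lay 454 and 936 bp from the 3D position. Both matches of chromosome 16 were in introns annotated to Coro7 and Dnaja3, and those of chromosome 9 in introns of Bud13 and of 4931429L15Rik. The RefSeq annotation places the start of Dnaja3, on the plus strand, at 4684070. Both matches lie before it, so their place in Dnaja3 depends on the annotation. These examples thus lay near the 2D position in some bins and near the 3D position in others. Not all matches of these bins are printed, and that of chromosome 10 also held one 1.80 kb from the 2D position. The examples therefore do not place the motifs of a bin on 1 side. At a bin of 40 kb the lists cannot place a border on any of these matches.

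The shifts had no common direction along the chromosome. Of the 986 displaced borders, 474 moved upstream, toward lower coordinates, 466 moved downstream, and 46 had a 3D border 40 kb away on both sides. Of those with a single direction, 49.6% moved downstream (46.4 to 52.8%). By autosome, 9 had more downstream shifts, 9 had more upstream shifts and 1 had as many of each. The longest series of consecutive 2D borders that moved the same way held 3 borders, and there were 2 such series. The first was on chromosome 4, where the borders at 3920000, 6280000 and 6440000 in 2D lay at 3960000, 6320000 and 6480000 in 3D.

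The role of a border was read from the 2D list. Of the displaced borders, 281 were only the start of a TAD, 275 were only an end, and at 430 a pair of TADs met. Meeting positions made up 43.6% of the displaced borders (40.5 to 46.7%), 53.6% (52.0 to 55.2%) of the borders at the same position and 35.0% (32.1 to 38.0%) of those 80 kb or more away. The lower share than at the same position depends on 190 displaced borders, described below, that share their 3D border with another. These lie at the edges of 80 kb stretches outside TADs and are only a start or only an end by construction. Without them, meeting positions were 430 of 796 displaced borders, close to their share at the same position. Read the other way, 15.6% of the meeting positions were displaced, 19.2% of the starts and 18.8% of the ends. The shares of starts and ends include the same 190 borders, so this order depends on them, too.

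**Figure D1:**
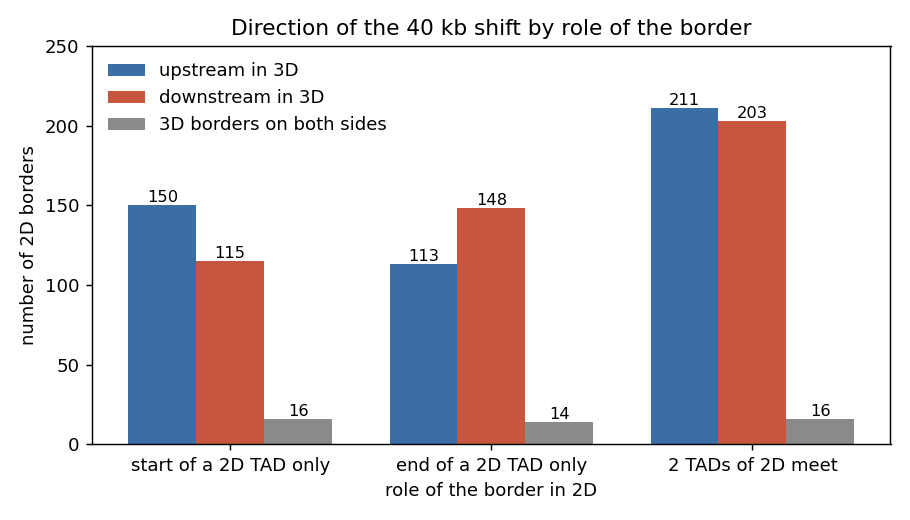
Number of displaced 2D borders (vertical axis) by their role in 2D (horizontal axis), with blue bars for 3D positions 40 kb upstream, red bars for 40 kb downstream and grey bars for 3D borders on both sides. Starts moved upstream more often (150 against 115), ends downstream more often (148 against 113), and meeting positions about equally (211 and 203).

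For a border that is only a start or only an end, a shift can point outward, into the unassigned sequence beside the 2D TAD, or inward. Starts moved upstream in 150 cases and downstream in 115, and ends moved downstream in 148 and upstream in 113. In both roles the shift thus more often pointed outward, in 298 of 526 cases or 56.7% (52.4 to 60.8%). An outward shift did not always add the bin to a TAD: the bin was part of a 3D TAD in 271 of the 298 cases and unassigned in 3D in 27. Part of these starts and ends lay at short unassigned intervals, the stretches between TADs that the lists leave out. In 170 of the outward shifts the nearest 3D border also lay 40 kb from a second 2D border, and all 170 shifts of that kind point outward by construction. Among the other 356 starts and ends, 128 shifts pointed outward, 36.0% (31.1 to 41.1%), so without the shifts of that kind the direction was reversed.

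Such a shared 3D border lies in the middle of an unassigned interval of 80 kb. The 2D list had 829 autosomal intervals of 80 kb, and 95 of them (11.5%, 9.47 to 13.8%) had a 3D border exactly at the middle, which accounts for 190 displaced borders. At 54 of these middles a pair of 3D TADs met, so that the interval was closed and divided between its neighbours, while the other middles were only a start or only an end in 3D. The opposite, a 2D border in the middle of an 80 kb interval of 3D, was found for 46 of 686 intervals (6.71%, 5.06 to 8.83%), and these are the 46 borders with a 3D border on both sides. The share was thus higher for the 2D intervals, with intervals of the 2 shares that do not overlap. An interval that moved by 1 bin as a whole can be counted in both of these shares. Another 339 intervals of 80 kb were identical in both lists.

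Of the closed intervals with a pair of 3D TADs meeting at the middle, those with the longest neighbours lay on chromosome 3 from 157840001 to 157920000, beside 2D TADs of 3600 and 120 kb, on chromosome 3 from 142200001 to 142280000, beside TADs of 3120 and 200 kb, and on chromosome 8 from 40200001 to 40280000, beside TADs of 3120 and 120 kb. None of these 3 held a protein-coding gene start. Of the 16 meeting positions of 2D that opened into an 80 kb interval of 3D, those with the longest neighbours were at 5000000 on chromosome 12, at 90120000 on chromosome 9 and at 72560000 on chromosome 14. The interval on chromosome 9 held the start of Morf4l1, which encodes a chromodomain protein of histone acetyltransferase complexes, and the other 2 held none.

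The role of the border changed with the shift more often than at fixed positions. Of the 940 borders with a single direction, 407 (43.3%, 40.2 to 46.5%) had the same role at the 3D position, against 81.7% (80.4 to 82.9%) of the borders at the same position. The 265 starts became a meeting position in 154 cases, stayed a start in 69 and became an end in 42. The 261 ends became a meeting position in 164 cases, an end in 49 and a start in 48. The 414 meeting positions remained meeting positions in 289 cases (69.8%, 65.2 to 74.0%). A 3D border shared by a start and an end cannot keep the role of both, and 170 of the 940 borders had such a 3D border. Part of the changes of starts and ends is therefore fixed by construction. Meeting positions never share a 3D border, and 90.7% (89.3 to 91.9%) of those at the same position kept their role. Seen from the displaced bin, 589 of the 940 bins (62.7%) lay in a TAD in both lists, 271 (28.8%) were unassigned in 2D and in a TAD in 3D, 53 (5.64%) were in a TAD in 2D and unassigned in 3D, and 27 were unassigned in both. The counts of gained and lost bins are not on an equal footing, since 170 of the outward shifts are fixed by a shared 3D border, while the 46 borders with a 3D border on both sides, the mirror case, have no single displaced bin and are left out.

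The TADs beside displaced borders were close in size to those beside other borders. The 1416 flanking 2D TADs, in which a TAD with both ends displaced counts at each end, had a median size of 240 kb (200 to 240 kb). The middle 50% of them ranged from 160 to 520 kb and all of them from 120 to 5720 kb. The median was 240 kb (240 to 240 kb) beside borders at the same position and 200 kb (160 to 200 kb) beside borders 80 kb or more away. TADs of 120 kb, the shortest in the lists, made up 22.6% (20.5 to 24.8%) beside displaced borders, 19.7% (18.6 to 20.7%) beside borders at the same position and 31.4% (29.0 to 33.9%) beside the most distant class. The 3D TADs beside the 3D positions had a median of 280 kb (240 to 280 kb) and 15.5% of them measured 120 kb.

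**Figure D2:**
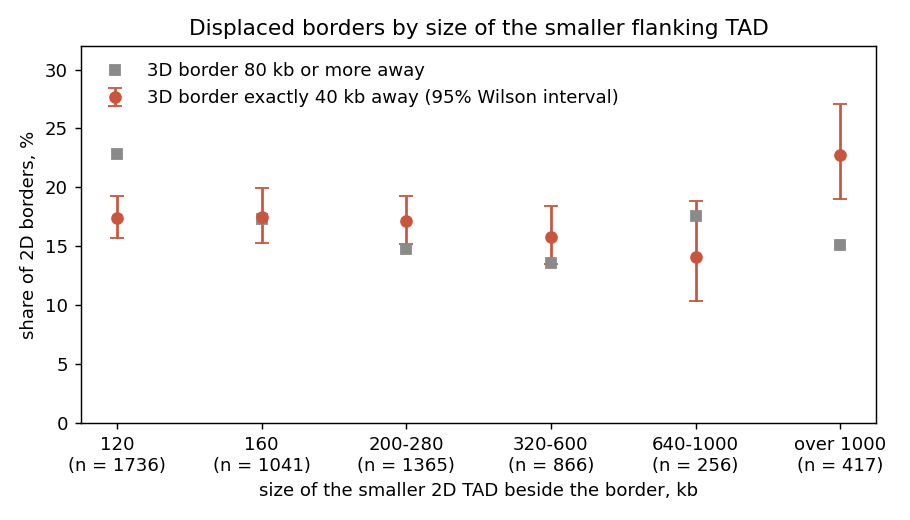
Share of 2D borders in percent (vertical axis) by size of the smaller 2D TAD beside the border in kb (horizontal axis), which is the only TAD at a start or an end. Red points with 95% Wilson intervals stand for 3D borders exactly 40 kb away and grey squares for 3D borders 80 kb or more away. The red share lies between 14.1% and 17.5% up to 1000 kb and at 22.8% above, while the grey share is highest, at 22.9%, beside TADs of 120 kb.

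By size of the smaller flanking TAD, the share of displaced borders was 17.4% at 120 kb (302 of 1736 borders), 17.5% at 160 kb, 17.1% between 200 and 280 kb, 15.8% between 320 and 600 kb and 14.1% between 640 and 1000 kb. It was 22.8% (19.0 to 27.0%) where the smaller flanking TAD was longer than 1000 kb, with 95 of 417 borders. The share of borders with a 3D border 80 kb or more away had another pattern, with 22.9% at 120 kb and 15.1% above 1000 kb. The share displaced by 1 bin was therefore higher beside the longest TADs than beside the shortest, though the intervals of these classes overlap between 19.0 and 19.3%. A start or an end was classed by its only TAD, while a meeting position entered the longest class only if both TADs exceeded 1000 kb. Of the 95 displaced borders in that class, 43 were only a start and 36 only an end. Size is thus mixed with role, and their parts were not tested.

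At positions where a pair of TADs met in 2D and in 3D, the border moved into the larger of 2 unequal TADs in 175 of 273 cases (64.1%, 58.3 to 69.6%). Over all positions where unequal TADs met in 2D, whatever their role in 3D, it did so in 211 of 377 cases (56.0%, 50.9 to 60.9%). The lists hold no TAD under 120 kb, so a TAD of that size can hardly lose a bin. Where the smaller TAD measured 120 kb, the shift went into the larger in 60 of 70 cases. Where both were longer, it did so in 115 of 203 cases, 56.7% (49.8 to 63.3%), an interval that includes equal shares.

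At 100 of the 289 positions that were meeting positions in both lists (34.6%), the outer ends of the pair of TADs were also identical, so that only the border between them had moved. These simple shifts went downstream in 57 cases (47.2 to 66.3%). The TAD that lost the bin had a median size of 320 kb, and the loss was 0.763 to 25% of it, with a median of 12.5%. The pairs were 280 to 8320 kb long in sum, with a median of 680 kb.

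The longest such pair lay on chromosome 8, where TADs of 4880 and 3440 kb met at 100800000 in 2D and TADs of 4920 and 3400 kb at 100840000 in 3D. No gene start lay in the displaced bin, and the nearest, that of the cadherin gene Cdh8, was 1384 kb from the 2D position. On chromosome 6, a TAD of 320 kb met one of 5240 kb at 73240000 in 2D and at 73280000 in 3D. The bin between held the start of Suclg1, which encodes a subunit of succinyl-CoA synthetase, 8.38 kb from the 2D and 31.6 kb from the 3D position. On chromosome 3, the border moved from 151760000 to 151720000, and the start of the interferon-induced gene Ifi44 lay between, while that of its neighbour Ifi44l was 2.89 kb from the 2D position.

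Another of the longest pairs was again on chromosome 6, at 81920000 in 2D and 81960000 in 3D, with the start of Gcfc2 3.67 kb from the former and that of Mrpl19, a gene of the mitochondrial ribosome, 5.96 kb from the latter. In the pairs on chromosomes 3 and 6 a gene start lay in the bin that changed sides, and in each of them the 2D position was the nearer to a gene start. Over all 100 simple shifts, the 2D position was the nearer in 52 and the 3D position in 48.

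At the level of whole TADs, 1281 of 4221 autosomal 2D TADs (30.3%) had at least 1 displaced end. In 691 of them, the other end was at the same position and the new pair of positions was 1 TAD of the 3D list, and 385 of these (55.7%, 52.0 to 59.4%) were 1 bin longer in 3D, and the others were 1 bin shorter. All 70 of them that measured 120 kb in 2D were longer, since the lists hold no shorter TAD. Without these 70, 315 of 621 were longer (50.7%, 46.8 to 54.6%), an interval that includes equal shares. Leaving out also the TADs that measured 120 kb in 3D, all of which had become shorter, gave 315 of 561 (56.1%, 52.0 to 60.2%). With the ends that share their 3D border left out as well, which removes longer TADs only, it was 243 of 489 (49.7%, 45.3 to 54.1%).

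Where both ends were displaced, each in a single direction, both pointed the same way in 31 TADs, outward in 46 and inward in 46. The new positions were the ends of a single 3D TAD in 23 of the 31, which had moved as a whole, in 43 of the 46 with outward shifts, which had grown, and in 33 of the 46 with inward shifts, which had shrunk. The median sizes in 2D of the 31, 46 and 46 TADs were 160, 200 and 380 kb. The longest that moved lay on chromosome 5 from 80560001 to 83520000 (2960 kb), with the starts of the adhesion receptor gene Adgrl3 and of Tecrl, and began and ended 40 kb upstream in 3D. The TAD before it, from 77400001 to 80560000, was among the longest that shrank and extended from 77440001 to 80520000 in 3D. Its only gene start in 2D, that of Igfbp7, lay in the bin lost at its beginning, outside the 3D TAD. The next longest that moved lay on chromosome 4 from 3920001 to 6280000. In 2D it held 10 gene starts, among them that of Cyp7a1, the rate-limiting enzyme of bile acid synthesis. In 3D it extended from 3960001 to 6320000, and 2 of these starts lay in the bin left behind at its beginning. The longest that grew lay on chromosome 8 from 6040001 to 8680000 and held the start of Efnb2, an ephrin ligand, and the longest that shrank lay on chromosome 5 from 38560001 to 41840000 and held 6 gene starts. All 5 of these TADs were 1 TAD in the 3D list, too.

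Gene starts were taken from GENCODE M21 as the 5′ ends of protein-coding genes, which the rule had not used. Of the 940 borders with a single direction, the 2D position was the nearer to a gene start in 464 and the 3D position in 476, a share for 2D of 49.4% (46.2 to 52.6%). The median distance was 21.3 kb (19.4 to 23.3 kb) from the 2D position and 18.9 kb (16.8 to 21.4 kb) from the 3D position. Neither list was thus closer to gene starts beyond counting error. Borders at the same position were closer, with a median of 15.9 kb (15.0 to 16.8 kb).

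By role, the 2D position was the nearer in 137 of 261 ends (52.5%, 46.4 to 58.5%), in 214 of 414 meeting positions (51.7%, 46.9 to 56.5%) and in 113 of 265 starts (42.6%, 36.8 to 48.7%). For borders that only start a TAD in 2D, the 3D position was thus the nearer in 152 cases, 86 of 150 upstream and 66 of 115 downstream. Within each direction, the interval of the share nearer in 2D included equal shares (35.0 to 50.7% upstream, 34.0 to 51.7% downstream). The median distance of these starts was 19.8 kb from the 2D and 14.1 kb from the 3D position. A gene start lay within 20 kb of 134 of the 2D and 155 of the 3D positions. With all annotated genes, or with the starts of protein-coding transcripts, in place of protein-coding genes, the share nearer in 2D among these starts was 44.2% and its interval, 38.3 to 50.2%, included equal shares. The difference between the roles was not tested.

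**Figure D3:**
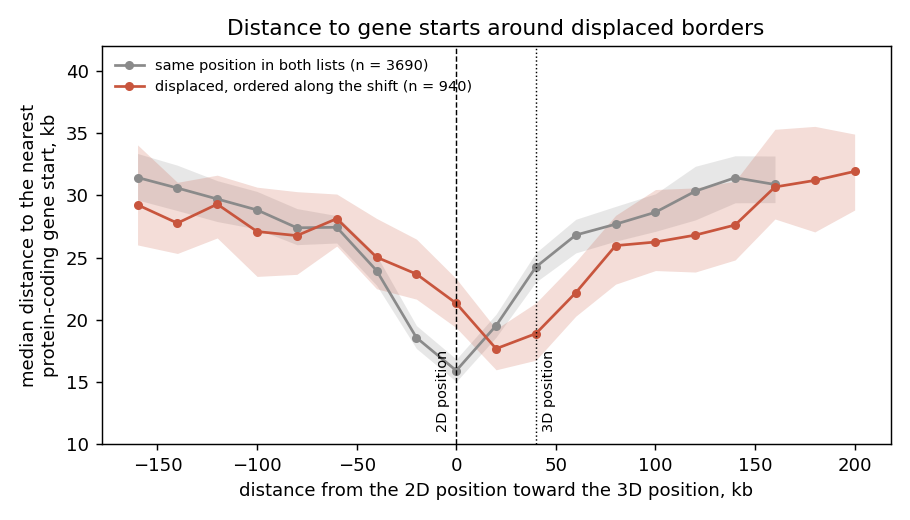
Median distance to the nearest protein-coding gene start in kb (vertical axis, starting at 10 kb) at points from 160 kb before to 200 kb after the 2D position in the direction of the shift (horizontal axis, kb), for 940 displaced borders (red) and 3690 borders at the same position (grey, ordered by coordinate). Bands are 95% order-statistic intervals. The red curve is lowest midway between the positions, at 17.7 kb, and the grey curve at the border, at 15.9 kb.

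Along the direction of the shift, the median distance fell from 25.0 kb at 1 bin before the 2D position to 21.3 kb at it, 17.7 kb (16.0 to 19.3 kb) at the middle of the displaced bin and 18.9 kb at the 3D position, and rose to 26.0 kb at 1 bin beyond. The lowest value was therefore between the called positions, though its interval overlaps that of the 3D position. The 2D position was nearer to a gene start than the point 1 bin behind it in 57.4% of the borders (54.3 to 60.6%), and the 3D position was nearer than the point 1 bin beyond it in 57.1% (53.9 to 60.3%). At fixed borders the same comparison gave 59.5% downstream and 58.7% upstream. For the 170 shifts with a shared 3D border, the point 1 bin beyond the 3D position is itself a 2D border.

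The displaced bin held more gene starts than the bins around it. It had a mean of 0.835 protein-coding gene starts (SD over bins 1.01, n = 940), the bin before the 2D position 0.654 (SD 0.896) and the bin beyond the 3D position 0.691 (SD 0.945), and the bins 2 to 5 away had 0.546 to 0.617. A start was present in 55.0% of the displaced bins (51.8 to 58.2%), against 45.0% and 46.1% of the bins on either side and 24.4% of all autosomal bins. At borders in the same position, the bins before and after held 0.816 and 0.783 starts, so the displaced bin was at the level of the bins that touch a fixed border. For the 170 shifts with a shared 3D border, the bin beyond the 3D position is the other part of the same unassigned interval. That bin is therefore not a plain background in these cases, here and for the motif matches below.

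**Figure D4:**
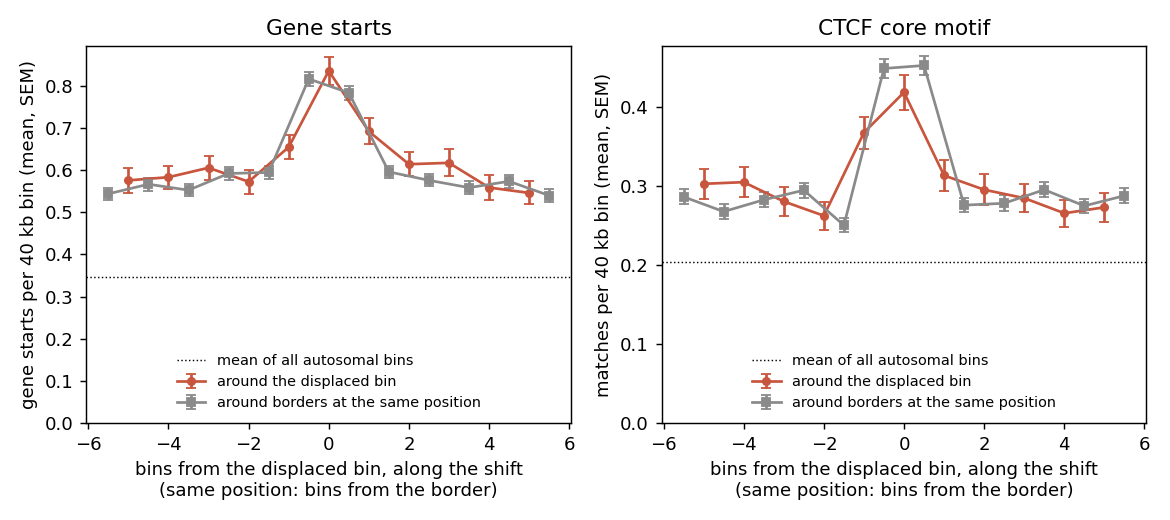
Protein-coding gene starts (left) and matches to the CTCF core motif (right) per 40 kb bin (vertical axes, mean with the SEM over bins) by distance in bins (horizontal axes). The displaced bin is at 0 with the 2D side to its left and the 3D side to its right (red, 940 borders), fixed borders are in grey (3690), and the dotted line is the mean of all autosomal bins. Within the red curves both measures are highest in the displaced bin, at 0.835 and 0.419.

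Matches to the CTCF core motif stood out less from the bin on the 2D side. The displaced bin had a mean of 0.419 matches (SD over bins 0.685), the bin before the 2D position 0.368 (SD 0.618) and the bin beyond the 3D position 0.314 (SD 0.591), while the bins 2 to 5 away had 0.263 to 0.305 and all autosomal bins 0.204. The bins that touch a fixed border had 0.449 and 0.453. A match was present in 32.7% of the displaced bins and in 30.1% (27.3 to 33.1%) of the bins before the 2D position, with overlapping intervals, and in 25.7% (23.1 to 28.6%) of the bins beyond the 3D position. At borders that only end a TAD in 2D the order was the other way round, with 28.7% (23.6 to 34.5%) of the displaced bins and 34.1% (28.6 to 40.0%) of the bins before the 2D position, and again the intervals overlap. Of the 394 matches in displaced bins, 206 (52.3%, 47.4 to 57.2%) were nearer to the 2D position. By annotation, 180 were between genes, 169 in introns, 31 in exons outside UTRs and 14 in UTRs. GC content was flat across these bins, with 44.1% in the displaced bin and 44.2% on either side (41.9% over all autosomal bins), as were repeats, with 30.7%, 30.5% and 31.4%, and MboI sites, with 97.2, 97.0 and 98.5 per bin. The part of base composition, repeats and sites in the higher values was not tested.

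The strand of the motif differed with the role of the border. In the displaced bin and the bin on either side of it, 154 of 268 matches at starts were on the plus strand (57.5%, 51.5 to 63.2%), 123 of 298 at ends (41.3%, 35.8 to 46.9%) and 225 of 469 at meeting positions (48.0%, 43.5 to 52.5%). The intervals of starts and ends did not overlap, and the directions were those of motifs that point into the TAD. In the 2 bins that touch a fixed border, the shares were 55.0% at starts, 38.6% at ends and 48.3% at meeting positions. In the displaced bin alone, they were 60 of 101 at starts (59.4%) and 45 of 100 at ends (45.0%), with overlapping intervals.

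The displaced bins added up to 37.6 Mb and held the starts of 785 protein-coding genes, 3.78% of the 20780 on the autosomes. Of these genes, 464 had their start in a TAD in both lists, 269 were unassigned in 2D and in a TAD in 3D, and 26 the reverse. The same unequal footing holds for these genes, so the counts do not show that genes more often gained than lost a TAD in 3D. Of 484 autosomal genes in 8 lists chosen for this tissue and treatment, 17 had their start in a displaced bin, 3.51%, close to the share of all genes. By list, the number was 3 of 64 for plasma proteins and apolipoproteins, 1 of 46 for hepatic transcription factors, 0 of 68 for xenobiotic metabolism, 1 of 42 for bile acids and transport, 3 of 40 for the urea cycle and gluconeogenesis, 1 of 82 for cell adhesion and matrix, 4 of 84 for the cell cycle and DNA replication and 4 of 58 for genome architecture. The intervals of all 8 lists, and of the lists together, include 3.78%.

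Among the plasma proteins, the start of Hp (haptoglobin, which binds free hemoglobin) lay at the end of a 2D TAD of 2040 kb on chromosome 8 and at the beginning of a 3D TAD of 120 kb, because the border moved from 109600000 to 109560000. The start of F11, coagulation factor XI, changed in the same sense from a TAD of 240 kb to one of 120 kb. That of Serpinf2, the plasmin inhibitor, at 75439591 on chromosome 11, was 39.6 kb from the 2D border and 0.409 kb from the 3D border, and so close to the latter that a bin of 40 kb does not decide its side. Foxa3, a forkhead factor of hepatocytes, lay in a 2D TAD of 160 kb and a 3D TAD of 120 kb on chromosome 7.

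In the metabolic lists, Tat, tyrosine aminotransferase, and Slc37a4, the glucose-6-phosphate transporter of the endoplasmic reticulum, had their starts in unassigned sequence in 2D and in 3D TADs of 120 and 320 kb. Slc37a4 started 3.15 kb from the 3D border, so the bin does not decide its side in 3D. The start of Ahcy, which hydrolyses S-adenosylhomocysteine, lay in a 2D TAD of 120 kb and a 3D TAD of 440 kb. That of the efflux transporter gene Abcg2 was at the end of a TAD of 1680 kb in 2D and at the beginning of one of 240 kb in 3D. Itga1, a collagen-binding integrin, lay in TADs of 160 and 120 kb.

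Of the cell cycle genes, Cdk4, the kinase of early G1, was in unassigned sequence in 2D and in a TAD of 160 kb in 3D. Mcm3, a subunit of the replicative helicase, had its start at 20820312 on chromosome 1, 20.3 kb from the 2D and 19.7 kb from the 3D position, and lay in TADs of 120 and 240 kb. Mcm10, a replication initiation factor, lay in a 2D TAD of 160 kb and a 3D TAD of 960 kb, and the mitotic cyclin gene Ccnb2 in TADs of 360 and 200 kb. Of the genome architecture genes, Lbr (lamin B receptor) and Sun1 (an inner nuclear membrane protein) had their starts in unassigned sequence in 2D and in TADs of 280 and 400 kb in 3D. The start of Sun1 was 0.637 kb from the 2D border, so the bin does not decide its side in 2D. That of Lbr was 3.05 kb from the 3D border, so its side in 3D is not decided either. Yy1, a zinc finger factor of promoters and enhancers, lay in TADs of 120 and 280 kb, and Ncapg2, a condensin II subunit, in TADs of 200 kb in both.

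The displaced bin with the most gene starts, 7, lay on chromosome 10 from 127040001 to 127080000 and held Mettl1, Eef1akmt3, Cyp27b1, March9, Cdk4, Tspan31 and Agap2. A 2D TAD of 120 kb ended at 127040000, and a 3D TAD of 160 kb ended at 127080000, where the next one began at the middle of a closed interval of 80 kb. Another 4 bins held 6 starts each. They were on chromosome 9 from 106440001 (Abhd14b, Abhd14a, Pcbp4, Gpr62, Rrp9 and Parp3), on chromosome 11 from 78160001 (with Traf4 and Rpl23a, a gene of a cytosolic ribosomal protein), on chromosome 13 from 21800001 (6 histone genes, from Hist1h2bq to Hist1h2br) and on chromosome 14 from 50920001 (with Apex1, an endonuclease of base excision repair, and Pnp, purine nucleoside phosphorylase). In the first 3 of these 5, the border ended a TAD in 2D and the bin between was unassigned in 2D and part of a TAD in 3D.

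Some positions fell almost on a gene start. The 2D position nearest to one was at 25720000 on chromosome 8, 37 bp from the start of Plpp5, a lipid phosphatase gene, and the 3D position at 25760000 was 5.40 kb from the start of Ddhd2. The next was at 64960000 on chromosome 5, 97 bp from the start of the innate immune receptor gene Tlr6 in GENCODE. RefSeq has starts of Tlr6 at 64960048 and 64959166, so the distance and the side depend on the annotation. The third was at 4680000 on chromosome 16, 223 bp from the start of Coro7, and its 3D position at 4640000 was also the nearest of all 3D positions to a gene start in GENCODE, 11 bp from that of Dnaja3. RefSeq places the start of Dnaja3 44.1 kb from there, so this distance depends on the annotation. On chromosome 9, the border moved from 46280000 to 46320000, from 3.01 kb beside the start of Bud13 to 14 bp beside that of 4931429L15Rik, and both of these starts and the motifs printed above lay in the bin between. On chromosome 3, the 3D position at 40800000 was 19 bp from the start of Plk4, the kinase of centriole duplication, and the 2D position at 40760000 was 15.5 kb from that of Hspa4l. This 3D position, too, was the middle of a closed interval. RefSeq places the start of Plk4 at 40799951, on the other side of it, so the side depends on the annotation. Since every position is a multiple of 40 kb, the lists do not resolve distances of this order.

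By autosome, the share of displaced borders ran from 9.75% (6.58 to 14.2%) on chromosome 15, with 23 of 236 borders, to 22.2% (17.5 to 27.8%) on chromosome 12, with 56 of 252. The intervals of these 2 did not overlap, and the intervals of 16 of the 19 autosomes included the pooled share. Chromosome 15 also had the highest share of borders at the same position, 71.6%, against 62.7% on chromosome 12. The share of displaced borders was higher after a displaced border than after a fixed one. The next border along the chromosome was displaced after 269 of 985 displaced borders (27.3%, 24.6 to 30.2%) and after 526 of 3675 fixed borders (14.3%, 13.2 to 15.5%). The 95 intervals of 80 kb with a 3D border at the middle give such a pair by construction, and with these pairs left out the share after a displaced border was 174 of 890 (19.6%, 17.1 to 22.3%). After borders 80 kb or more away it was close to this, 189 of 1002 (18.9%, 16.6 to 21.4%). The higher share than after fixed borders was thus not particular to displaced borders.

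**Figure D5:**
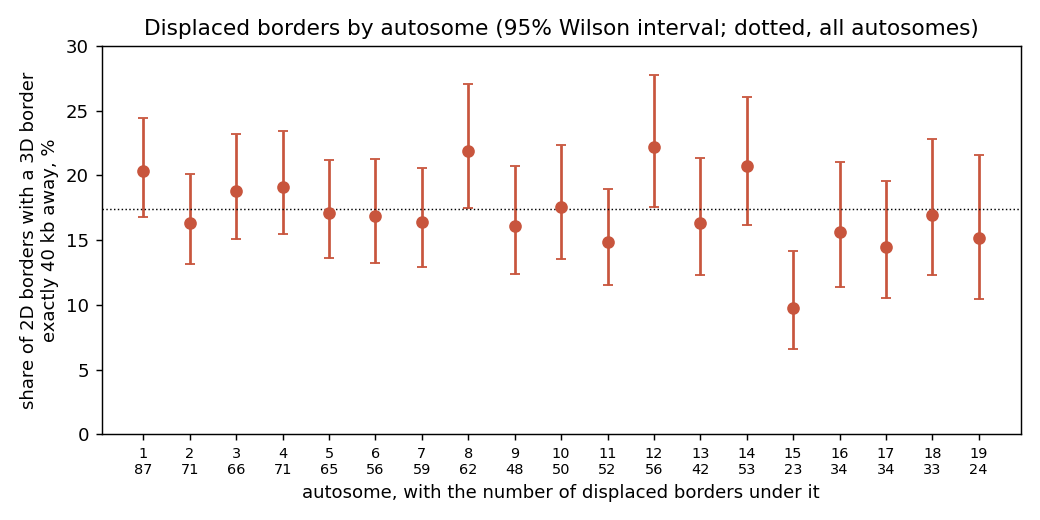
Share of 2D borders with a 3D border exactly 40 kb away in percent (vertical axis) by autosome (horizontal axis, with the number of displaced borders). Bars are 95% Wilson intervals and the dotted line is the share over all autosomes, 17.4%. Chromosome 15 is lowest at 9.75% and chromosome 12 highest at 22.2%.

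Taken from the other list, 937 of 5189 autosomal 3D borders (18.1%) had their nearest 2D border exactly 40 kb away. Their number differs from 986 because 95 positions of 3D had such a partner on both sides, as did 46 positions of 2D.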

How the data were processed

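In situ Hi-C was done by the authors on 2D- and 3D-cultured AML12 cells. Per the paper's methods, reads were mapped to mm10 (the submitters' processing notes name Bowtie2, 2.2.9), and the authors combined the replicates, normalized 40 kb matrices with ICE, set both cultures to the same depth per chromosome and called TADs with Armatus at a gamma of 0.8. The deposited values are start and end positions in base pairs, in 1 list per culture, with no score or read count, so the depth behind a border is unknown. With the replicates combined, the error between them cannot be estimated.

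Distances between distinct starts and ends were computed with numpy 2.4.6, scipy 1.17.1 and pandas 2.3.3 under Python 3.11.15, and plots were drawn with matplotlib 3.10.9. Border positions are given as deposited, and the starts of TADs and bins 1-based. Gene starts were taken from GENCODE M21 and sequence from GRCm38. The members and lists were chosen with earlier results of these data known. Regions and genes were named by rules: genes of the lists in a displaced bin, the bins with most gene starts, the longest simple shifts, closed or opened intervals and TADs with both ends displaced, the longest series of shifts, the extreme autosomes and the positions closest to a gene start. The functions were tested on simulated lists with 3819 borders, and 7 of 7 measures were returned as simulated. Alternatives were other definitions of a border, of a match, of the TADs used and of gene starts. Chromosome X was used only in an alternative. Some of the regions and motif matches that these rules name are not reported here.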

Additional observations from a re-analysis of the deposited data

How the results depend on the processing

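Of 34 values recomputed with other choices, 25 kept within the 95% interval of the share or median, or within 1.5 times the count, while 8 moved further and 1 changed direction. With only positions where 2 TADs meet as borders, there were 289 displaced borders, 10.5% of such positions, and the 2D position was nearer to a gene start in 54.0% (48.2 to 59.6%). When only TADs from 200 kb upward were used, 653 borders were displaced, 15.8% of the borders, and 51.2% of the shifts of a start or an end pointed outward. Starts matched to starts and ends to ends gave a share displaced of 14.2%. Leaving out borders that share their 3D border gave 14.5%, and 36.0% of the shifts then pointed outward in place of 56.7%. This reversal follows from the construction of the alternative, which leaves out outward shifts only. The cause of the other changes was not tested. The share of downstream shifts, 48.1 to 49.6%, and the median flanking size, 240 kb, kept within their interval in all choices tried for them. For starts, the share nearer in 2D was 41.3 to 44.2% under 5 choices made after seeing the data. With all annotated genes, and also with the starts of protein-coding transcripts, it was 44.2% and its interval reached 50.2%.

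No paired analysis was possible because each list was called on the combined maps of both replicates. Leaving out each replicate was not possible for the same reason. A shift of 1 bin is the smallest the lists can show, and its size cannot be set against the difference between replicate maps.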

Other observations

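A displaced border lay within the HoxC cluster, the homeobox genes that pattern the body axis, and it was singled out after its values were seen. On chromosome 15, TADs of 240 and 160 kb met at 103000000 in 2D and a pair of TADs with the same outer ends met at 102960000 in 3D. The starts of 5 genes, Hoxc10, Hoxc5, Hoxc9, Hoxc8 and Hoxc6, lay in the bin between as GENCODE annotates them, so that these positions belonged to the TAD before the border in 2D and to the TAD after it in 3D. The start given for Hoxc5 lies before that of Hoxc9 and Hoxc8, which precede it in the cluster, so its place in this bin depends on the annotation. No other annotation was compared for these genes. The start of Hoxc6 was 1.74 kb from the 2D position, and that of Hoxc10 was 6.80 kb from the 3D position. Next to Serpinf2 on chromosome 11, the start of Serpinf1 lay in the same displaced bin, 22.7 kb from the 2D and 17.3 kb from the 3D position. No expression data were analysed here, so nothing is known from these lists about the activity of these genes.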
